A study of Mus musculus with 31 samples.

Results

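The expression of 10 nuclear genes tied to the maintenance and expression of mitochondrial DNA (mtDNA) was examined, out of the 20544 genes counted in single 2-cell mouse embryos. They were chosen by symbol as a functional group. Tfam, Tfb2m and Polrmt belong to the transcription machinery, and Tfb1m encodes a methyltransferase of the small mitochondrial ribosomal RNA. Polg, Polg2, Ssbp1 and Mgme1 belong to the replication machinery, and Nrf1 and Gabpa are nuclear regulators. All 10 were found in the table, each under 1 gene identifier.

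Mitochondrial DNA carries the genes of a small set of respiratory chain subunits, and every protein that maintains it is encoded in the nucleus. TFAM coats and compacts mtDNA into nucleoids and bends its promoters, where the RNA polymerase POLRMT and the melting factor TFB2M start transcription. A primer made by POLRMT is extended by the DNA polymerase POLG. In the mouse, the egg stores a large pool of mtDNA that cleavage divides among the blastomeres, with little net replication until around the blastocyst stage.

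The embryos were made by in vitro fertilization of oocytes from superovulated CD1 females of 8 to 10 weeks with sperm of C57BL/6J males of 12 to 14 weeks. Sperm of the control group (16 embryos) stayed in complete medium. Sperm of the SER group (sperm energy restriction and recovery, 15 embryos) were held without glucose and pyruvate until they stopped moving, which took 15 to 45 min, and were then given both nutrients back. The labels name no transgene or mutation, and both groups shared the 4 h coculture, the culture medium, the collection at 32 h after insemination and a Smart-seq3 library of polyadenylated RNA from each whole embryo. The labels name no male, female, dish or batch for an embryo, so p-values measure the spread between these embryos, some of which may share parents. The study describes 3 batches of control- and SER-generated embryos. Since the labels do not say which embryo came from which batch, the part of batch in a value could not be told here. Levels are shares of the RNA of a whole embryo, so fewer transcripts of a gene and more RNA of other genes cannot be told apart.

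Levels are given as CPM, the counts of a gene scaled to the total count of its library. Totals ran from 532945 to 3088396 counts, with a median of 955806.5 in control- and 1375557 in SER-generated embryos, so that 1 count stood for 0.324 to 1.88 CPM and a count of 0 allowed up to 0.971 to 5.63 CPM (3 counts, counting error only). None of 15 mtDNA-encoded transcripts was among the rows of the table, so the products of these genes' activity are not analysed here. In 29 embryos the 14 oocyte markers summed to 982 to 6470 CPM and the 13 markers of zygotic activation at the 2-cell stage to 386 to 1718 CPM. The libraries of control replicate 4 and SER replicate 15 stood apart. They held 10924 and 12150 CPM of oocyte markers and 49.8 and 144 CPM of zygotic markers. Btg4 (6100 and 4964 CPM) and Bmp15 (2094 and 2775 CPM) were the largest parts of the oocyte sums of this pair. Zp1, Khdc3 and Tle6 were highest in other embryos in both groups. Both libraries carry the 2-cell label, and these levels do not test the number of cells. Whether they were activated 2-cell embryos is not known, so values without this pair are given beside those of all 31. Of 14 cumulus cell markers 11 had a median of 0 CPM, and most of the rest was Amhr2, with means of 95.1 ± 49.2 CPM in control- (n = 16) and 132 ± 74.3 CPM in SER-generated embryos (n = 15). Cyp11a1, the steroidogenic side-chain cleavage enzyme, was lower in SER-generated embryos (edgeR fit without the filter, log2 fold change -5.35 ± 1.00, SE, adjusted p = 0.0256). Control replicate 5 held 1423 CPM and control replicates 6, 7, 8, 9 and 11 held 28.6 to 71.8 CPM, whereas no SER-generated embryo exceeded 11.1 CPM. Without replicate 5 the control mean was 18.5 ± 23.1 CPM (n = 15), against 2.45 ± 3.32 CPM in SER-generated embryos (n = 15). Control replicate 5 also held the highest control values of Inhba (120 CPM), Inha (53.7), Star (21.5), Fshr (4.61) and Foxl2 (1.54). Has2, Tnfaip6, Ptgs2, Amh, Amhr2, Cyp19a1 and Col4a1 were highest in other control-generated embryos, and Ptx3 had no count in that group. The cumulus cell markers summed to 1685 CPM in control replicate 5 and to at most 307 CPM in SER-generated embryos. The part of these markers in the results below was not tested. Of 12 sperm markers 8 had a median of 0 CPM.

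Per kilobase of exon, taken as the union of exons, Gabpa, Tfb2m, Nrf1 and Polrmt were the most abundant of the 10 transcripts, and Tfam was among the 4 least abundant. The order depended in part on the length used, as given below. In CPM, with no division by length, the highest means were Gabpa at 265, Nrf1 at 141, Ssbp1 at 74.5, Tfb2m at 64.4 and Polrmt at 64.1. Tfam averaged 7.01 CPM. Gabpa, the DNA-binding subunit of the GABP (NRF-2) factor, had the highest mean level over the 31 embryos at 46.7 ± 30.7 CPM per kb (SD). Tfb2m followed at 23.0 ± 12.7 CPM per kb, and then Nrf1, a nuclear activator of many respiratory genes, at 13.7 ± 5.47 CPM per kb. Each of these 3 differed from its next neighbour in the order except Nrf1, which could not be separated from Polrmt at 13.7 ± 11.1 CPM per kb (sign-flip permutation test within embryos, two-sided, p = 0.98). For Gabpa over Tfb2m and for Tfb2m over Nrf1 the permutation p was 1e-05, the smallest that the resamples can give.

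Among the replication genes, Mgme1, an exonuclease that trims DNA ends at mtDNA replication, averaged 9.77 ± 4.20 CPM per kb. Ssbp1, the protein that coats single-stranded mtDNA, averaged 8.91 ± 3.37 CPM per kb. Mgme1 was lower than Polrmt (permutation p = 0.0415), and it did not separate from Ssbp1 (permutation p = 0.244). The catalytic polymerase subunit Polg was far lower than Ssbp1 at 2.66 ± 1.58 CPM per kb (permutation p = 1e-05). Tfb1m, a methyltransferase of the small mitochondrial ribosomal RNA, averaged 2.38 ± 3.20, Tfam 1.58 ± 1.52 and Polg2, the accessory polymerase subunit, 1.04 ± 1.09 CPM per kb. No neighbours within these lowest 4 genes separated (permutation p = 0.617, 0.243 and 0.150 going down the order).

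Within either group alone no gene moved by more than 1 rank. Among SER-generated embryos alone Tfam was the lowest of the 10 at 0.983 CPM per kb, below Polg2 at 1.33 CPM per kb, and that pair did not separate (permutation p = 0.455). Among control-generated embryos Tfam averaged 2.14 and Polg2 0.771 CPM per kb, and this pair did separate (permutation p = 0.008). Taking the longest transcript as the length in place of the union of exons kept 5 of the 10 genes at their rank and moved none by more than 2 ranks, with Tfam the lowest but one under both lengths. Under the longest transcript Nrf1 (34.9 CPM per kb) stood above Tfb2m (26.3 CPM per kb, permutation p = 0.00022), the reverse of the order above. Ssbp1 (16.9 CPM per kb) took rank 4 from Polrmt (14.9 CPM per kb), a pair that did not separate (permutation p = 0.331). Polrmt did not separate from Mgme1 (permutation p = 0.0978), whereas Tfb1m separated from Tfam (permutation p = 0.0216). Without the pair of libraries that stood apart 8 of the 10 kept their rank, and Polrmt (14.5 CPM per kb) and Nrf1 (14.2 CPM per kb) changed places, a pair that again did not separate (permutation p = 0.885).

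**Figure D1:**
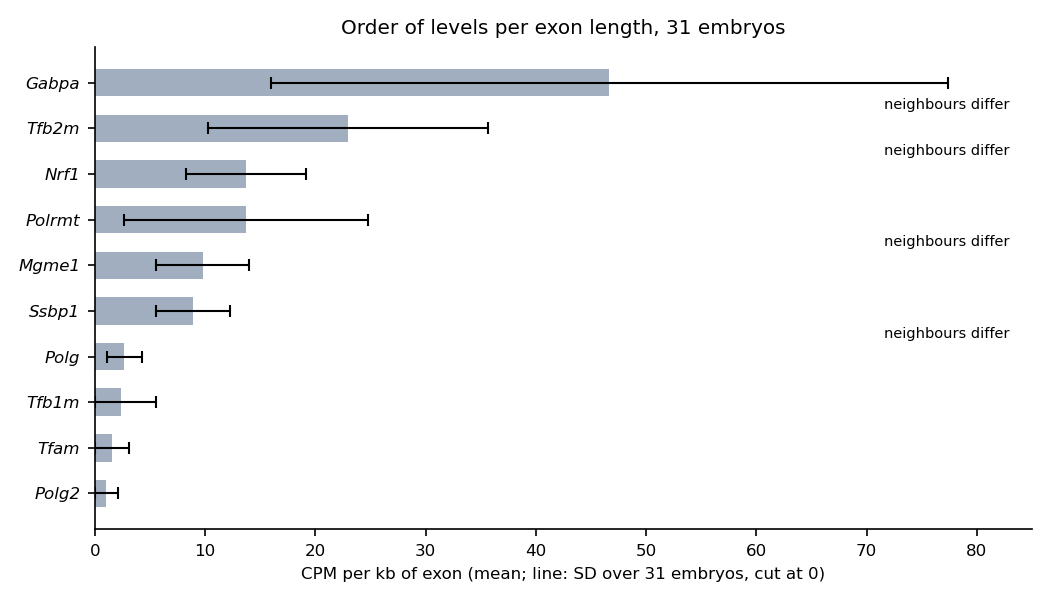
Mean level of each gene over the 31 embryos in CPM per kb of exon, with lines for the SD. Gabpa stands at 46.7 and Polg2 at 1.04 CPM per kb, and the words "neighbours differ" mark the 4 steps in the order with a permutation p under 0.05.

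The gene starts were read for the letters that the 2 regulators recognise, since Nrf1 and Gabpa are members together with genes they are known to act on. RefSeq windows of 250 bases before to 50 bases after each start (GRCm38.p6) were found for all 10 genes and searched on both strands for GCGCATGC, the core of the NRF1 motif, and CCGGAAG, the core of the GABPA motif, strings that do not overlap each other in these windows. The NRF1 letters occurred in 2 genes, Tfb2m and Polrmt, against 3.05% of all 27025 genes with such a window. The GABPA letters occurred in 6 genes, Tfam, Polrmt, Polg, Polg2, Ssbp1 and Gabpa itself, against 9.93% of genes. Tfb1m, Mgme1 and Nrf1 held neither. The searched letters were chosen with the promoter sequences known, and the background genes were not matched for base content. These shares are therefore a description, and no excess was tested. The stretches below are shown for Tfam, for both genes of the transcription machinery that carry NRF1 letters and for Gabpa, with the matched letters in capitals, each read 5′ to 3′ on the gene's own strand.
Tfam, GABPA letters at -47 to -41 from the start (10:71238073-71238102, minus strand): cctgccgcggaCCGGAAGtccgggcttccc
Polrmt, NRF1 letters at -133 to -126 (10:79746696-79746725, minus strand): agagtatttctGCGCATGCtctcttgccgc
Polrmt, GABPA letters on the opposite strand at -43 to -37 (10:79746606-79746635, minus strand): ccctaagagcgCTTCCGGcagtcgcagaac
Tfb2m, NRF1 letters on the opposite strand at 13 to 20 (1:179546245-179546274, minus strand): ctaggtcgttcGCATGCGCcattcgtaatg
Gabpa, GABPA letters on the opposite strand at -93 to -87 (16:84835020-84835049, plus strand): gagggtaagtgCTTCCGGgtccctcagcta
In Polg, Polg2 and Ssbp1 the letters began at -38, -29 and -47 from the start. The matched letters of Tfam and Tfb2m lie within GENCODE exons of these genes, and those of Polrmt and Gabpa lie outside annotated exons. A match describes these letters only, and binding was not measured in these embryos.

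Between the treatments, none of the 10 genes passed an adjusted p of 0.1 in edgeR's quasi-likelihood test. The same test called 0 of 8571 genes (0%) among those kept by the filter on low counts, with 491 (5.73%) at an unadjusted p under 0.05, whereas DESeq2 called 49 of 7241 with an adjusted p (0.677%). Limma voom with sample weights called 848 of 8571 (9.89%), and DESeq2 called 0 and voom 3 of the 7 members that passed the filter, the latter Tfb2m, Mgme1 and Nrf1. Tfam, Tfb1m and Polg2 did not pass it, and their values come from a fit without that filter, over the 17803 genes seen at least once, which called 504 (2.83%) in edgeR, 45 of 7436 with an adjusted p in DESeq2 (0.605%) and 81 in voom (0.455%). None of these 3 genes was called in edgeR or voom, and DESeq2 gave them no adjusted p. A permutation test of CPM, not adjusted for the number of genes, gave a p under 0.05 for 2 of the 10, Tfam and Nrf1, where 7.74% of the genes kept by the filter and 5.82% of all genes with a count had one.

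Tfam, on chromosome 10 (71225464 to 71238280, minus strand, ENSMUSG00000003923.14), was a rare transcript, with a median of 6 counts per embryo. In control-generated embryos it ran from 0 through a median of 8.65 to 30.2 CPM, and in SER-generated embryos from 0 through a median of 3.60 to 18.4 CPM. Tfam had no count in 1 control-generated embryo of 16 and in 4 SER-generated embryos of 15, and in 2 and 7 after all libraries were thinned to 532945 counts. The groups overlapped over nearly their whole range, and 12 of 15 SER-generated embryos lay below the control median.

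The mean difference of Tfam was -5.14 CPM (permutation p = 0.0271), and the edgeR estimate on the log2 scale had a 95% interval of -2.51 to 0.24. The highest value of all embryos, 30.2 CPM, was that of control replicate 4, one of the pair of libraries that stood apart, where Tfam ranked first of 31. SER replicate 15, the other, held 11.3 CPM. Without both, the control mean was 8.12 ± 4.73 CPM (n = 15), the SER mean was 3.87 ± 5.11 CPM (n = 14), and the difference was -4.25 CPM (permutation p = 0.0285). Without control replicate 4 alone it was -3.76 CPM (permutation p = 0.0512), the only 1 of 31 embryos whose removal took p above 0.05. Without control replicate 5, the embryo with the most Cyp11a1, it was -4.75 CPM (permutation p = 0.0443). The study singled out Tfam on these same embryos, so this difference is not independent evidence of a direction.

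Polrmt (chromosome 10, 79736123 to 79746581), the mitochondrial RNA polymerase, gave values in the other direction. It ran from 0 through 32.2 to 134 CPM in control- and from 10.9 through 83.6 to 181 CPM in SER-generated embryos. Of the SER-generated embryos 12 of 15 lay above the control median, although the ranges overlapped. The means were 47.2 ± 42.2 (n = 16) and 82.0 ± 56.4 CPM (n = 15), with a permutation p of 0.0604 over 31 and 0.053 over 29 embryos. The edgeR log2 fold change was 0.84 ± 0.46 (SE), with an adjusted p of 0.869. Leaving out 1 embryo took the permutation p below 0.05 for 8 of 31 embryos, control replicates 8, 9 and 11 and SER replicates 8, 9, 13, 14 and 15, with values from 0.0267 to 0.0477.

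The estimates for Tfb2m and Tfb1m turned on single embryos or on the test. Tfb2m (chromosome 1, 179528055 to 179546267) ran from 13.6 through 47.3 to 147 CPM in control- and from 18.3 through 71.2 to 128 CPM in SER-generated embryos. The fitted log2 ratio was 0.13, with an SE of 0.31 and an adjusted p of 0.981 in edgeR. It was 0.31 without control replicate 1 and 0.014 without SER replicate 5, and voom gave 0.66 (adjusted p = 0.0862). Both groups spanned nearly the same range. Tfb1m (chromosome 17, 3519256 to 3557781) ran from 0 through 6.32 to 24.8 CPM in control- and from 0 through 2.73 to 59.1 CPM in SER-generated embryos.

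The high Tfb1m value was SER replicate 13, and the next highest SER value was 10.1 CPM. With that embryo the edgeR log2 fold change was -0.33 ± 0.67 (SE, adjusted p = 0.920), and the permutation p was 0.704. Without it the SER mean dropped from 7.50 to 3.81 ± 3.42 CPM (n = 14) against a control mean of 9.59 ± 7.99 CPM (n = 16), a difference of -5.77 CPM (permutation p = 0.0168), and the fitted log2 fold change was -1.33. SER replicate 13 was picked by its Tfb1m value in the group with the lower mean, so leaving it out can only widen the difference. The p without it is no test of the treatment. The same embryo had the highest Polg value of all, at 66.1 CPM.

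Over the 31 embryos no replication gene had a permutation p of CPM under 0.05, although voom called Mgme1 (log2 fold change 0.70, adjusted p = 0.0664). Polg (chromosome 7, 79446231 to 79466362) ran from 0 through 34.6 to 59.8 CPM in control- and from 6.77 through 21.1 to 66.1 CPM in SER-generated embryos, with 11 of 15 SER-generated embryos below the control median (permutation p = 0.271). Polg2 (chromosome 11, 106768253 to 106779537) was without a count in 6 control-generated embryos of 16 and in 1 SER-generated embryo of 15. In libraries thinned to the same depth these numbers were 7 and 4. Its mean was 3.36 ± 4.48 CPM in control- (n = 16) and 5.80 ± 4.86 CPM in SER-generated embryos (n = 15), with a permutation p of 0.157. The 95% interval of its edgeR log2 fold change ran from -0.69 to 2.33, at a median of 3 counts per embryo.

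Ssbp1 (chromosome 6, 40471352 to 40484700) was nearly without counts in control replicate 4 (0 CPM) and SER replicate 15 (1.56 CPM) and held at least 45.9 CPM in the other 29 embryos. The other 15 control-generated embryos averaged 80.7 ± 17.2 CPM and the other 14 SER-generated embryos 78.4 ± 24.8 CPM (permutation p = 0.775). Over 31 embryos the edgeR log2 fold change was -0.08, with a 95% interval of -0.78 to 0.62. Mgme1 (chromosome 2, 144270663 to 144281227) averaged 28.8 ± 15.5 in control- (n = 16) and 36.9 ± 11.4 CPM in SER-generated embryos (n = 15), with a permutation p of 0.108. A single control-generated embryo, replicate 8, held 71.8 CPM, well above the next control value of 47.1 CPM. Without it the control mean was 25.9 ± 10.8 CPM (n = 15), and the permutation p was 0.0127, while on the log2(CPM + 1) scale over 31 embryos it was 0.0498. Replicate 8 was picked by its Mgme1 value in the group with the lower mean, so leaving it out can only widen the difference. The p without replicate 8 is no test of the treatment, and over 29 embryos the permutation p was 0.166.

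Of the regulators, Nrf1 (chromosome 6, 30047988 to 30153458) ran from 61.9 through 116 to 193 CPM in control- and from 64.3 through 158 to 283 CPM in SER-generated embryos. The 6 highest values were all SER-generated embryos, while 5 of 15 SER-generated embryos lay below the control median. The difference in means was 39.9 CPM (permutation p = 0.0468) over 31 and 42.9 CPM (permutation p = 0.0291) over 29 embryos. The edgeR log2 fold change was 0.38 ± 0.21 (SE, adjusted p = 0.869), and voom gave 0.52 (adjusted p = 0.0900). The permutation p was above 0.05 with TMM-scaled libraries (0.0661), thinned counts (0.0707) and log2(CPM + 1) (0.0817). When 1 embryo was left out the permutation p was under 0.05 in 13 of 31 cases, those without control replicate 1, 2, 6, 8, 12 or 15 or SER replicate 3, 8, 11, 12, 13, 14 or 15. In the other cases it reached up to 0.0925, without SER replicate 7.

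Gabpa (chromosome 16, 84834925 to 84863779) had the widest spread of the 10 in CPM, from 0 through 176 to 713 CPM in control- and from 0 through 284 to 558 CPM in SER-generated embryos. The 2 zeros were the pair of libraries that stood apart, and the lowest of the other 29 embryos held 101 CPM. Control replicates 1 and 2 held 713 and 689 CPM, far above the next control value of 331 CPM, that of control replicate 3. The highest SER values were those of SER replicates 2 and 1, at 558 and 477 CPM. The labels do not say whether these embryos shared a batch. The edgeR log2 fold change was 0.15 ± 0.47 (SE, adjusted p = 0.983). It was 0.39 without control replicate 1, 0.055 without SER replicate 2 and 0.81 in voom (adjusted p = 0.130), and its sign turned with the oocyte covariate given below.

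**Figure D2:**
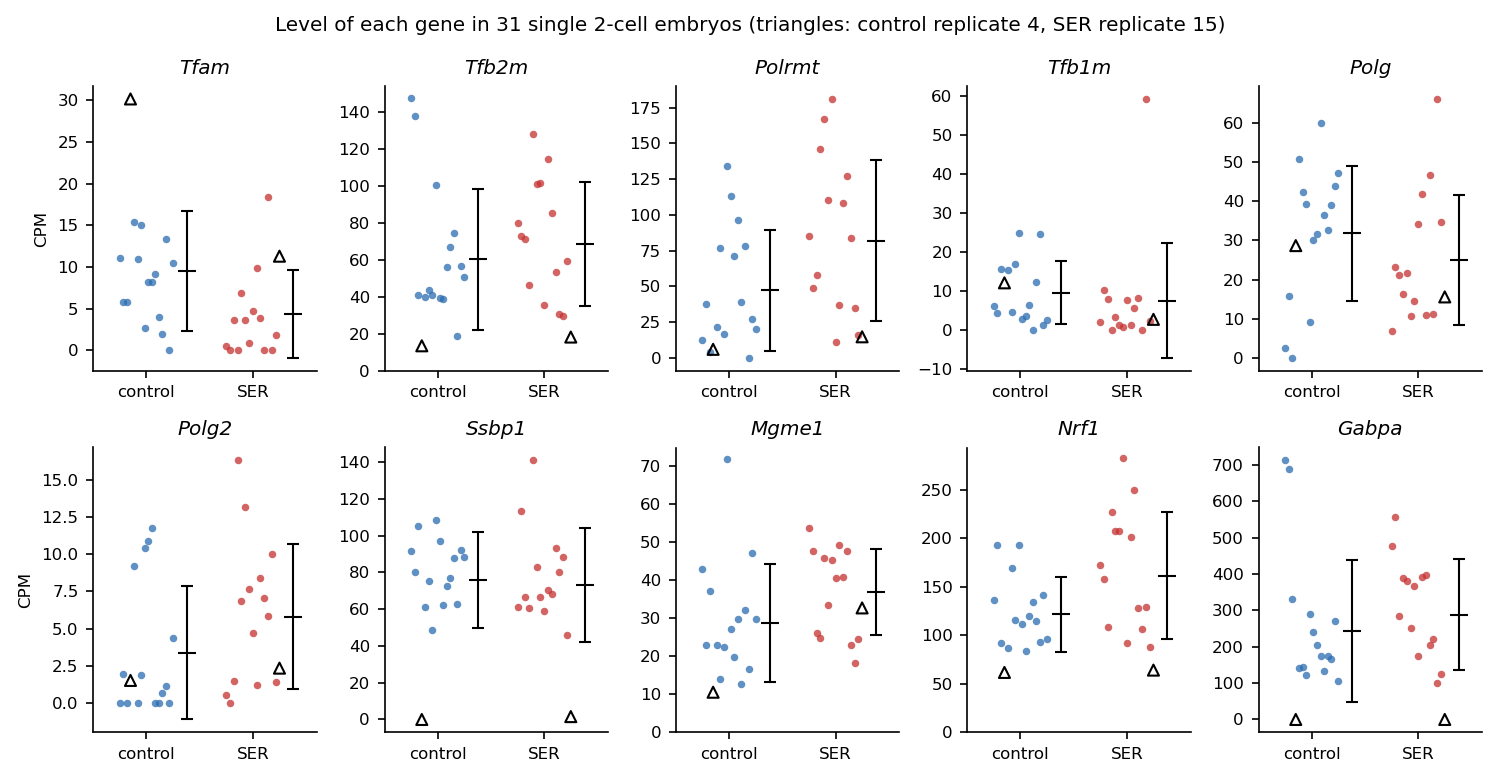
CPM of the 10 genes in each of 16 control- (blue) and 15 SER-generated (red) embryos, 1 point per embryo, with bars for the group mean and SD and triangles for control replicate 4 and SER replicate 15. For Ssbp1 and Gabpa both triangles lie at or near 0, whereas for Tfam the control triangle is the highest point at 30.2 CPM.

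**Figure D3:**
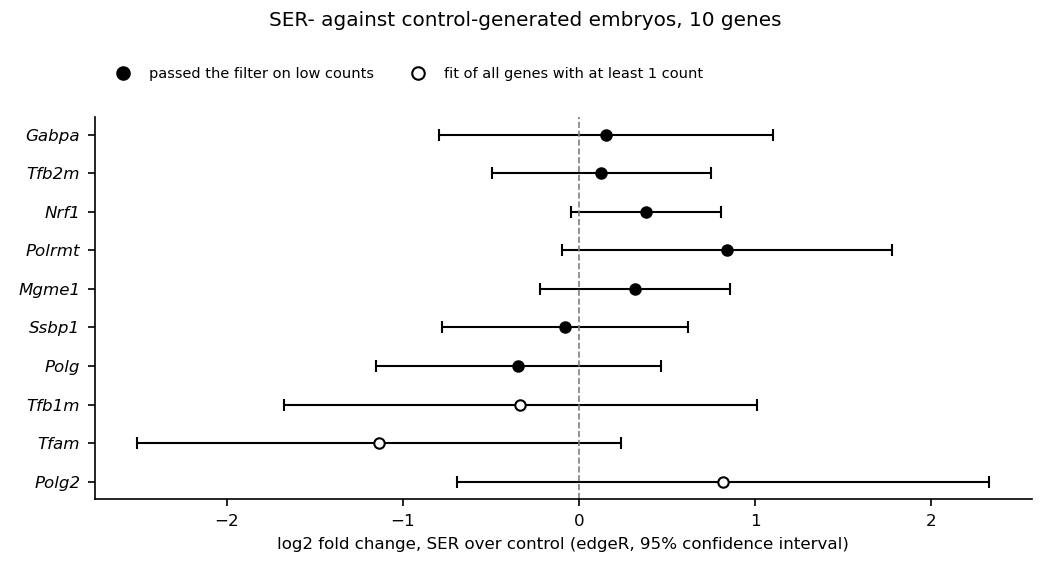
Log2 fold change of SER- over control-generated embryos with its 95% confidence interval from edgeR, for each of the 10 genes, with open circles for the 3 genes that the filter on low counts removed. Every interval includes 0, among them those of Tfam (-2.51 to 0.24), Polrmt (-0.10 to 1.78) and Nrf1 (-0.05 to 0.81).

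The pair of libraries that stood apart differed from the rest in some of these genes and not in others. In both, 4 of the 7 genes that passed the filter lay below all 29 other embryos, against 13.2% of the genes kept by the filter. They were Gabpa (0 CPM in both), Ssbp1 (0 and 1.56 CPM), Nrf1 (61.9 and 64.3 CPM against at least 84.1 CPM) and Tfb2m (13.6 and 18.3 CPM against at least 19.0 CPM). None of the 7 lay above all others in both, which 4.87% of the genes did. Tfam, Tfb1m, Polg, Polg2, Mgme1 and Polrmt lay within the range of the other embryos in at least 1 of the pair. Where Gabpa had 0 counts, Tfam had 20 in the control and 29 in the SER library.

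Over the 29 other embryos, each gene was compared with the summed level of the 14 oocyte markers, transcripts that the egg stores and the embryo clears. Both are CPM of the same library and share its total, and the adjusted p of Spearman's rho is over 8574 genes. Negative correlations at an adjusted p under 0.1 were found for 5 of the 10 genes, against 26.2% of genes, and positive ones for 2 of the 10, against 21.5%.

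Of the 10 genes Nrf1 had the rho farthest from 0 (r = -0.756, rho = -0.769, permutation p = 2e-05 and 1e-05, adjusted p of rho = 0.000236). Its rho was -0.489 among 15 control- and -0.899 among 14 SER-generated embryos, so the sign was the same in both. Nrf1 held 283 CPM in SER replicate 7, the embryo with the lowest sum of oocyte markers (982 CPM), and 96.1 CPM in control replicate 16, the highest of the 29 (6470 CPM).

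Polrmt was next (r = -0.701, rho = -0.701, permutation p = 3e-05 for both, adjusted p of rho = 0.000436), with a rho of -0.575 among control- and -0.807 among SER-generated embryos. Gabpa followed with r = -0.509 and rho = -0.664 (permutation p = 0.0042 and 0.00018, adjusted p of rho = 0.00154), and Tfb2m with r = -0.588 and rho = -0.641 (permutation p = 0.00085 and 0.00026, adjusted p of rho = 0.00201). Mgme1 was nearer to 0, with r = -0.384 and rho = -0.456 (permutation p = 0.0381 and 0.0134, adjusted p of rho = 0.0378). For each of these 5 genes the sign was the same within both groups. With the next 2 embryos farthest from the median of the oocyte sum also left out, r was -0.750 for Nrf1, -0.671 for Polrmt, -0.538 for Gabpa, -0.591 for Tfb2m and -0.449 for Mgme1 over 27 embryos.

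Tfam and Tfb1m had positive correlations, which were common over all genes. Of the genes compared, 19.1% had a rho at least as high as that of Tfam and 18.8% at least as high as that of Tfb1m. For Tfam r was 0.439 and rho 0.404 (permutation p = 0.0169 and 0.0298, adjusted p of rho = 0.0696), and for Tfb1m r was 0.409 and rho 0.410 (permutation p = 0.0204 and 0.029, adjusted p of rho = 0.0681). Within the groups the rho of Tfam was 0.525 among 15 control- and -0.113 among 14 SER-generated embryos, with r at 0.507 and 0.218, a difference that was not tested. The rho of Tfb1m was 0.314 and 0.398. Over 27 embryos Tfam had an r of 0.450 and a rho of 0.364, and Tfb1m 0.481 and 0.432. Polg, Polg2 and Ssbp1 gave a rho of 0.283, -0.202 and -0.0818, with adjusted p-values of 0.227, 0.408 and 0.76. For Ssbp1 the r of -0.63 over 31 embryos rested on the pair of libraries that stood apart, since it was -0.167 without them.

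The oocyte sum itself averaged 4339 ± 2250 CPM in control- (n = 16) and 3535 ± 2825 CPM in SER-generated embryos (n = 15; permutation p = 0.401). The zygotic markers averaged 687 ± 433 and 754 ± 320 CPM (permutation p = 0.634). When the log2 oocyte sum was added to the fit as a covariate, an alternative chosen after the data were seen, the log2 fold change of Nrf1 went from 0.38 to 0.05, that of Polrmt from 0.84 to 0.25 and that of Tfam from -1.14 to -0.75, and those of Gabpa and Tfb2m turned to -0.42 and -0.26. None passed the threshold in either fit, and the part of the oocyte sum in the differences between groups was not tested further.

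**Figure D4:**
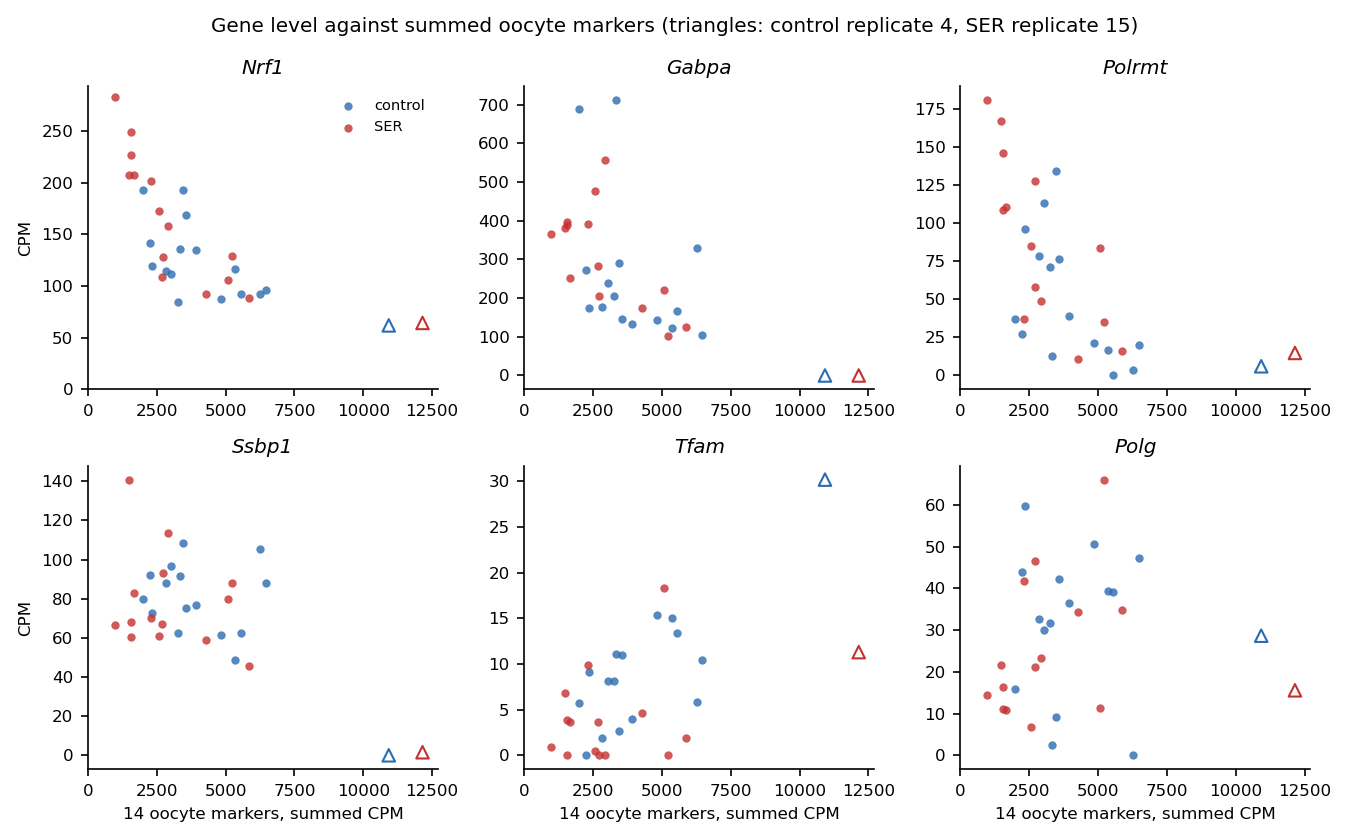
CPM of Nrf1, Gabpa, Polrmt, Ssbp1, Tfam and Polg against the summed CPM of 14 oocyte markers, 1 point per embryo (control blue, SER red), with triangles for control replicate 4 and SER replicate 15. Nrf1 runs from 283 CPM at the lowest oocyte sum to 61.9 and 64.3 CPM in the triangles, Ssbp1 is flat apart from the triangles, and Tfam lies at 18.4 CPM or less in every embryo but control replicate 4.

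The genes whose levels ran most like those of Tfam and of Gabpa over the 31 embryos were read from the 8571 genes kept by the filter, as a description. For Tfam they were Scin (Spearman's rho 0.741), Fbxw8 (0.688) and C87977 (0.686), and without the pair of libraries Scin kept the first place (0.725), followed by Tcl1b5 and Zbtb2. Scin encodes the actin-severing protein scinderin. For Gabpa, the gene with the highest mean CPM of the 10, they were Zfp143 (0.946), Ipo7 (0.929) and Selenot (0.924), the same 3 genes as over 29 embryos. Zfp143 is a zinc finger activator that binds promoters, and Ipo7 a nuclear import receptor. The median embryo held 232 counts of Gabpa and 6 of Tfam.

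Further genes of the pathway were read from 4 lists, and none of their tested members passed the edgeR threshold, as none of all 8571 did. Across all tested genes 4515 estimates were above 0 and 4056 below, and their median log2 fold change was 0.02. Across the 7 tested of the 10 genes 5 were above 0 and 2 below, with a median of 0.15. Without the pair of libraries that stood apart no gene of the 4 lists that the filter kept passed, and the medians of the lists, in the order below, were 0.010, -0.086, 0.061 and 0.090, beside -0.013 over all genes.

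Of 14 genes that replicate or repair mtDNA 12 were tested, 7 above 0 and 5 below, with a median of 0.06. The most abundant were Ung, which removes uracil from DNA (log2 fold change 0.06), Apex1, the abasic site endonuclease (-0.33), and Atad3a, an inner membrane ATPase tied to nucleoids (-0.25). The lowest unadjusted p was that of Twnk, the replicative mtDNA helicase, a gene picked out after its values were seen. Twnk averaged 23.8 ± 13.3 CPM in control- (n = 16) and 47.1 ± 21.4 CPM in SER-generated embryos (n = 15), with 13 of 15 SER-generated embryos above the control median, and its edgeR log2 fold change was 0.99 ± 0.36 (SE, adjusted p = 0.642).

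Of 13 genes that supply deoxynucleotides 11 were tested, 4 above 0 and 7 below, with a median of -0.08. The most abundant were the ribonucleotide reductase subunits Rrm2 (-0.17) and Rrm2b (-0.08) and the nucleotide hydrolase Samhd1 (-0.22). Dguok, the mitochondrial deoxyguanosine kinase, had the lowest unadjusted p of the list and was picked out after its values were seen. Every one of the 15 SER-generated embryos was lower than the control median of 21.1 CPM, with means of 25.1 ± 16.5 (n = 16) and 11.3 ± 5.82 CPM (n = 15) and an edgeR log2 fold change of -1.19 ± 0.46 (SE, adjusted p = 0.731).

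Of 23 genes of mitochondrial transcription and RNA processing 16 were tested, 11 above 0 and 5 below, with a median of 0.07. Tbrg4 and Rexo2, an RNA stability factor and an oligoribonuclease, had log2 fold changes of 0.02 and -0.53, and Elac2, which cuts the 3′ ends of tRNAs, 0.12. Fastkd5, an RNA processing factor, was picked out as the 1 gene of this list with an unadjusted p under 0.05. It averaged 33.9 ± 20.9 CPM in control- (n = 16) and 55.9 ± 25.2 CPM in SER-generated embryos (n = 15; edgeR adjusted p = 0.822). Hsd17b10, a subunit of the enzyme that cuts tRNA 5′ ends, was also picked out after its values were seen and had been removed by the filter. In the fit of all genes it passed the threshold with a log2 fold change of -2.67 (edgeR adjusted p = 0.0888), at a median of 3 counts per embryo, with a control mean of 9.29 ± 13.8 CPM (n = 16) that held 55.3 CPM in replicate 5, the embryo with the most Cyp11a1, and was 6.22 ± 6.58 CPM without it (n = 15), against 1.32 ± 1.34 CPM in SER-generated embryos (n = 15).

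Of 14 nuclear regulators other than Nrf1 and Gabpa 12 were tested, 9 above 0 and 3 below, with a median of 0.10. The most abundant were the transcription factors Nfe2l1 (0.42) and Yy1 (0.08) and Pprc1, a coactivator that works with NRF1 (0.86 ± 0.38, SE, edgeR adjusted p = 0.809). Pprc1 averaged 128 ± 79.7 CPM in control- (n = 16) and 231 ± 121 CPM in SER-generated embryos (n = 15). Gabpb2, which encodes a partner subunit of GABPA and was picked out after its values were seen, averaged 39.0 ± 28.7 and 76.3 ± 34.2 CPM, with 13 of 15 SER-generated embryos above the control median and an edgeR log2 fold change of 0.96 ± 0.34 (SE), at an adjusted p of 0.607. Its DNA-binding partner Gabpa, with 11 of 15 above the control median, had a log2 fold change of 0.15.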

How the data were processed

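Single 2-cell embryos (16 control, 15 SER) were sequenced with Smart-seq3 after 19 PCR cycles. The authors treated reads from the 5′ end, which carry a molecular identifier, apart from internal reads: STAR aligned each kind, UMI-tools or Picard took out duplicates, and featureCounts tallied the merged alignments. The deposited values are whole-number counts with no normalization, and every row names a gene. The build in the submitters' processing notes is mm10. Tool versions, annotation and strand setting are not given in the sources used here, so reads from the bases that Tfb1m (142), Polg (921), Polg2 (132), Mgme1 (206) and Gabpa (397) share with genes on the opposite strand may belong to either gene. The study corrected 3 batches with ComBat-seq, which the labels do not name for each embryo and which could not be repeated. No libraries held identical values.

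SER- and control-generated embryos were compared with edgeR 4.0.16 (R 4.3.3; quasi-likelihood test, TMM, filterByExpr with a minimum count of 10 and total of 15, no covariate, Benjamini-Hochberg adjusted p under 0.1). CPM was compared by two-sided permutation tests with 100000 resamples, unadjusted. Levels per kb used the exon union of GENCODE vM21 (GRCm38), the source of coordinates, and promoters came from RefSeq. DESeq2 1.42.0, limma 3.58.1 and sva 3.50.0 served as alternatives, and the fits were tested on simulated data. Since internal reads lack an identifier, true errors exceed counting error at depths of 532945 to 3088396 counts. The 10 genes, the lists, the marker lists and the searched letters were chosen with earlier results of these data or the promoter sequences known. Named beside the 10 genes were the 3 most abundant of each list, genes past the threshold and the 3 genes most like Tfam and like the most abundant of the 10. Twnk, Dguok, Fastkd5, Gabpb2 and Hsd17b10, and the single oocyte and cumulus cell markers, lie outside this rule and were named after their values were seen.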

Additional observations from a re-analysis of the deposited data

How the results depend on the processing

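Without the filter edgeR called 504 genes in place of 0, DESeq2 49, limma voom with sample weights 848 and the fit with the oocyte sum as a covariate 1; with DESeq2's size factors, a stricter filter, either depth covariate, 2 surrogate variables, thinning, the replicate block or any 1 embryo left out (0 to 0) it stayed at 0. Among the 10 genes only voom called any, 3 of the 7 tested beside 9.89% of all genes (Tfb2m 0.66, adjusted p = 0.0862; Mgme1 0.70, adjusted p = 0.0664; Nrf1 0.52, adjusted p = 0.0900). Among the genes of the 4 pathway lists only the fit without the filter called any, 1 (Hsd17b10). That fit also called the cumulus cell marker Cyp11a1, as given above. The number with a permutation p under 0.05 was 2, 1 with TMM-scaled libraries, 0 under the replicate block and 0 to 4 when 1 embryo was left out, with 0 without control replicate 4 and 4 without control replicate 8 or SER replicate 13. The p of Nrf1 was above 0.05 with TMM-scaled libraries (p = 0.0661), thinning (0.0707) and log2(CPM + 1) (0.0817, all by permutation), and that of Polrmt was below it with thinning (0.0444) and that of Mgme1 with log2(CPM + 1) (0.0498). Signs turned for Tfb2m (-0.26) and Gabpa (-0.42) with the oocyte covariate, for Gabpa with 2 surrogate variables (-0.077), and for Ssbp1 with voom (0.13), on the log2(CPM + 1) scale (0.0016) and without SER replicate 15 (with 1 embryo left out, log2 fold changes of -0.20 without SER replicate 5 to 0.018, and differences of -7.44 without control replicate 4 to 2.73 CPM). The cause was not tested. For Tfam the log2 fold change ran from -1.84 under the replicate block (edgeR adjusted p = 0.999) to -0.75 with the oocyte covariate (0.712). The replicate numbers were not taken as pairs: same-numbered embryos correlated from -0.37 to 0.49, 8 of 15 over 0.1, and 2 SER-generated embryos matched their own number best. Under this block the Tfam difference was -5.07 CPM (sign-flip permutation p = 0.0823) and that of Nrf1 38.2 CPM (0.11). The share of mtDNA-encoded counts and library totals without them could not be computed, since the table holds none. Depth limits Tfam, Tfb1m and Polg2, at medians of 3 to 6 counts per embryo, and the 3 batches of the study were not modelled.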
